A study of Homo sapiens with 4 samples.

Results

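The kinesin motor family was followed in HCT116 cells, an epithelial line from a human colorectal carcinoma, after transfection of an antisense oligonucleotide (ASO) against GAA repeats in RNA. Members were the protein-coding genes with a KIF symbol or the symbols KIFC1, KIFC2 and KIFC3, which gave 42 genes of 63677 counted. RNA-seq libraries came from 2 samples with the anti-GAA ASO and 2 with a control ASO, all taken 48 h after transfection per the labels and from the same line. Total counts were 10538284 and 17894953 for anti-GAA replicates 1 and 2, and 15347298 and 15924742 for control replicates 1 and 2. Nothing in the labels says what separates the replicates beyond their numbers, each shared by an anti-GAA and a control library. Deviations from the group means correlated between libraries of the same number (r = 0.56). Unless stated, p-values and standard errors leave that number out, and so count spread shared within a pair as noise. The common dispersion, edgeR's measure of spread over all genes, was 0.0549 without the number and 0.0148 with it. Of 7 colorectal epithelial markers, 6 were at 1 CPM (counts scaled to library size) or more in every library, with KRT19 the most abundant. VIL1, an epithelial marker, was near 0 throughout. Of the markers of other cells, 3 of 3 endothelial, 2 of 3 fibroblast and 3 of 4 haematopoietic genes and 1 of 3 neuronal genes stayed under 1 CPM in every library, while COL1A1 (10.1 to 14.6 CPM), a collagen gene, and SYT1 (15.2 to 20.3 CPM) and SNAP25 (0.0652 to 1.42 CPM), both neuronal genes, did not. ITGAM, a leukocyte gene, had 0.606 and 0.393 CPM in the anti-GAA libraries and 1.57 and 1.42 CPM in the controls, and its part in the values below was not tested.

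Kinesins are ATP-driven motors that walk along microtubules, mostly towards the plus end, with a minority walking to the minus end or taking microtubules apart. Mitotic kinesins build the spindle, move chromosomes and organise the midzone where the daughter cells separate, and their mRNAs are high in G2 and mitosis. Transport kinesins carry vesicles, endosomes, mitochondria and mRNA, often through light chains and adaptor proteins, and a further set works in cilia or regulates microtubule growth. In bulk RNA, fewer cells in mitosis and less of an mRNA per cell cannot be told apart.

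The ASO has 21 bases, of which the 9 DNA bases of the central gap are shown in capitals and the 12 bases of the modified wings in lower case. Its target is GAAGAAGAAGAAGAAGAAGAA in RNA letters written as DNA. The kinesin sites below were shown because they are the longest uninterrupted GAA runs in the longest annotated transcript of the 2 members with a run of 12 nt or more, the longest runs of 2 of the members with the lowest p, KIF24 and KIF16B, and the longest run within a kinesin gene when introns were searched too. Capitals mark the run, in any frame, on the RNA strand.
anti-GAA ASO: ttcttcTTCTTCTTCttcttc
KIF20B, exon 20: ttaaAAGAAGAAGAAGAAGAAacca
KIF3A, exon 10: catgGAAGAAGAAGAAagaa
KIF24, exon 2: atgcAAGAAGAAGAtaaa
KIF16B, exon 20: agacAAGAAGAAGAgacc
KIF26B, intron 4: aaaAAGAAGAAGAAGAAGAAGAAGAAGtaa

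On GRCh38 the KIF20B run of 17 nt lies at chr10:89738578-89738594 on the plus strand and the KIF3A run of 12 nt at chr5:132703519-132703530 on the minus strand, both in coding sequence. The KIF24 run (10 nt, chr9:34311144-34311153, minus strand) and the KIF16B run (10 nt, chr20:16379903-16379912, minus strand) are also coding. The KIF26B run of 24 nt, chr1:245433478-245433501 on the plus strand, is intronic, whereas its spliced transcript had no run above 8 nt.

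Of the 42 kinesins, 34 had enough counts to be tested, 13 of them mitotic, 13 transport and 8 ciliary or other. The 8 others were KIF2B, KIF4B, KIF1A, KIFC2, KIF6, KIF7, KIF19 and KIF25, with at most 11 counts in any library, and KIF2B and KIF19 had no count at all. Without the replicate number in the model, no kinesin passed an adjusted p of 0.05 in either direction. The test was edgeR's quasi-likelihood test with Benjamini-Hochberg adjustment, where 0% of the 15116 genes tested passed in each direction. The smallest adjusted p among kinesins was 0.922 (KIF24). DESeq2 called 0 kinesins as well, beside 0.0331% of all genes lower and 0% higher. With the replicate number added as a block, edgeR called 1 kinesin lower, KIF24 (adjusted p = 0.0350). That fit called 1.37% of all genes lower and 0.337% higher. With no adjustment and no block, edgeR gave 4 of 34 kinesins a p under 0.05 with lower values (11.8%) and 0 with higher values. The shares of all genes were 3.46% and 1.02%. These 4 were KIF20B, KIF16B, KIF24 and KIF26B. KIF26B was above 1 CPM in the control libraries only, and a filter on low counts can keep such a gene through its controls alone. DESeq2 gave 1 lower kinesin and 0 higher ones at that level, beside 2.1% and 0.662% of all genes. Leaving out 1 library gave 5 lower kinesins without anti-GAA replicate 1 (3.33% of all genes), 3 without control replicate 1 (3.86%), 2 without anti-GAA replicate 2 (3.92%) and 2 without control replicate 2 (1.86%).

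More kinesins were below their control level than above it. The log2 fold change, anti-GAA over control, was below 0 for 21 of 34 kinesins (61.8%) and for 48.4% of all genes, with a median of −0.11 for kinesins and 0.01 for all genes. Comparing libraries of the same replicate number, 16 kinesins (47.1%) were lower with the anti-GAA ASO in both pairs and 6 (17.6%) higher in both, while 12 were split. Over all genes, 30% were lower in both pairs and 31.8% higher in both. In 13 kinesins (38.2%) both anti-GAA libraries were below both control libraries, beside 16.9% of all genes, and in 3 (8.82%) both were above, beside 15.5%. These shares are descriptions of the list, which was not tested as a whole.

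**Figure D1:**
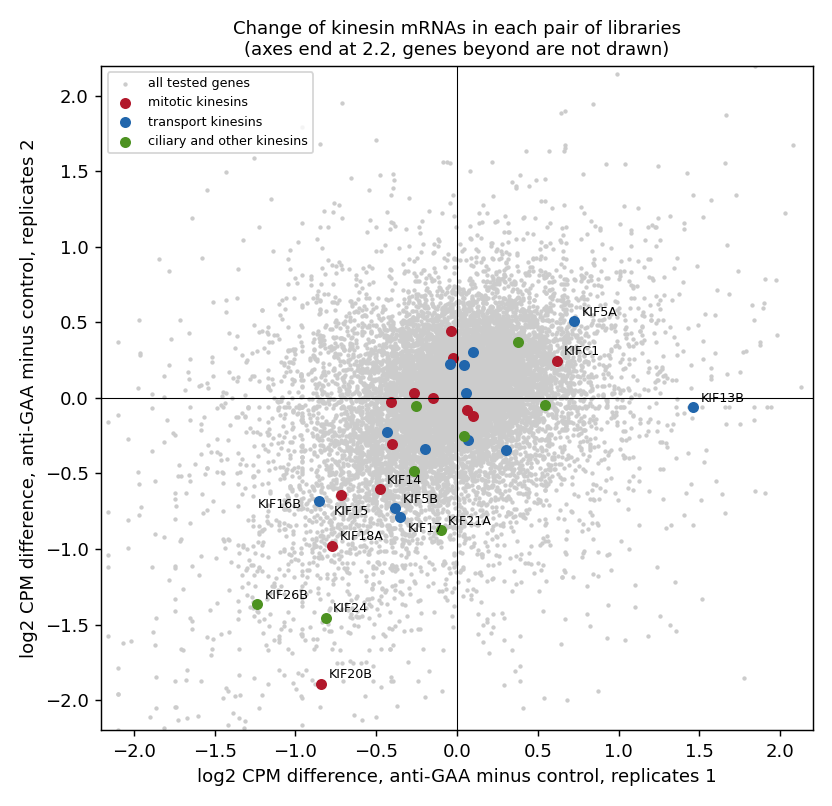
Difference in log2 CPM, anti-GAA minus control, for replicates 1 (horizontal axis) and replicates 2 (vertical axis), with grey points for all tested genes and coloured points for the 34 tested kinesins by class. KIF20B, KIF24, KIF26B, KIF18A and KIF16B lie in the lower left quadrant with the 16 kinesins that were lower in both pairs, and KIF13B is split.

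Among the mitotic kinesins, KIF20B, KIF15 and KIF14 had the smallest p with values below control. KIF20B, a plus-end motor of late cytokinesis, was at 1.62 and 0.618 CPM in the anti-GAA libraries and 3.0 and 2.65 CPM in the controls. Both anti-GAA libraries were below both controls, with a log2 fold change of −1.41 ± 0.53 (edgeR, unadjusted p = 0.0343, adjusted p = 0.996). Here and below, ± gives the standard error implied by edgeR's test without the replicate number, from 2 libraries in each group. That test shares information on variability across genes, so the error is not the spread of the printed CPM values alone. KIF20B was a thinly counted gene, with 16 and 11 counts against 46 and 45, and without anti-GAA replicate 2 the log2 fold change was −0.80. KIF15, which supports spindle bipolarity beside KIF11, had 5.46 and 6.74 CPM in the treated libraries and 9.06 and 10.6 CPM in the controls, a log2 fold change of −0.68 ± 0.29 (edgeR, unadjusted p = 0.0506, adjusted p = 0.996). KIF14, a cytokinesis motor that binds citron kinase and PRC1, was at 9.70 and 10.4 CPM against 13.6 and 15.9 CPM, a log2 fold change of −0.55 ± 0.25 (edgeR, unadjusted p = 0.0632, adjusted p = 0.996). In both genes the groups did not overlap.

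KIF18A, KIF11 and KIF4A, outside the naming rule, were picked out after their values had been seen. KIF18A, which limits chromosome movement at the metaphase plate, had 4.95 and 2.42 CPM against 8.54 and 4.89 CPM, so that it was lower in each pair by 0.77 and 0.98 on the log2 scale while the groups overlapped. KIF11, the motor that slides the spindle poles apart, had 32.1 and 40.0 CPM against 42.6 and 49.5 CPM (log2 fold change −0.35 ± 0.22). KIF4A, which sets midzone length with PRC1, had 50.7 and 46.5 CPM against 67.2 and 47.3 CPM, and its difference came from pair 1 (−0.41, beside −0.03 in pair 2). KIF4A and its near-identical copy KIF4B may share reads, so that the level of each is uncertain, and the same holds for KIF3A and KIF18B, which have annotated pseudogene copies.

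The abundant mitotic motors differed little between the groups. KIF2C, a microtubule depolymerase of centromeres, had the highest level per transcript length of the family, 55.7 and 46.5 CPM per kb in the treated libraries and 61.7 and 46.5 CPM per kb in the controls. KIF23, the motor of centralspindlin at the midzone, followed with 28.8 and 38.7 against 34.7 and 37.8 CPM per kb. Their log2 fold changes were −0.08 ± 0.22 and −0.10 ± 0.22, and in each the 4 libraries overlapped.

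On the other side, KIFC1, a minus-end motor that focuses spindle poles and clusters centrosomes, was the mitotic kinesin with the largest value above control. It had 26.1 and 18.995 CPM in the anti-GAA libraries and 16.95 and 15.98 CPM in the controls, without overlap, for a log2 fold change of 0.45 ± 0.25 (edgeR, unadjusted p = 0.114, adjusted p = 0.996). Exons of other genes on the opposite strand cover 14% of its exons, and whether the counts used strand is not stated. KIF20A, which brings the chromosomal passenger complex to the midzone, had 39.2 and 46.0 CPM against 40.3 and 33.7 CPM (log2 fold change 0.20 ± 0.22). KIF22, a chromosome-arm motor, had 114 and 70.4 CPM against 116 and 58.4 CPM, so that its replicates differed by more than its groups.

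**Figure D2:**
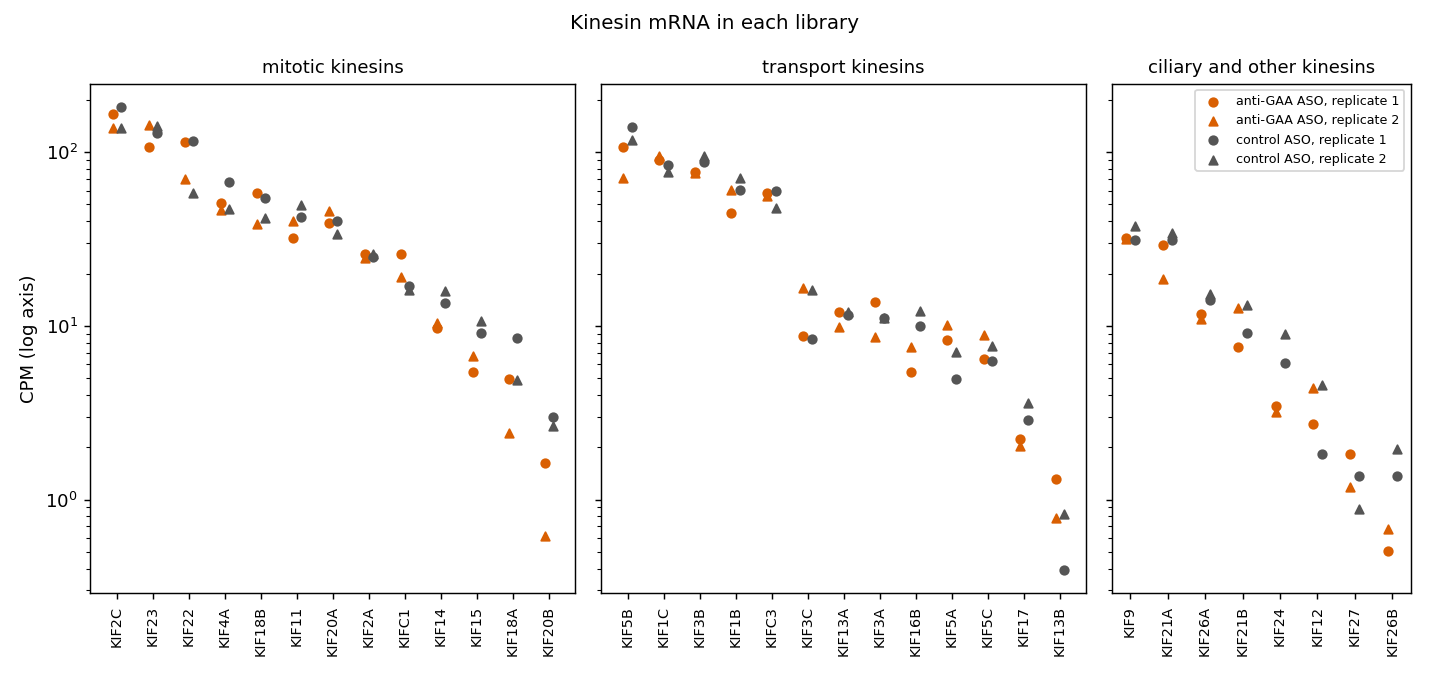
CPM of the 34 tested kinesins in the 4 libraries on a log axis, with orange for the anti-GAA ASO, grey for the control ASO, circles for replicate 1 and triangles for replicate 2. Orange points lie below grey ones for KIF20B, KIF15, KIF14, KIF11, KIF5B, KIF16B, KIF24 and KIF26B and above them for KIFC1, KIF1C and KIF5A.

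Among the transport kinesins the heavy chains of conventional kinesin, the motor that carries vesicles and mitochondria, did not share a direction. KIF5B, the widely expressed heavy chain and the most abundant transport kinesin per kb, had 107 and 70.9 CPM after the anti-GAA ASO against 139 and 118 CPM in the controls. The groups did not overlap, with a log2 fold change of −0.53 ± 0.25 (edgeR, unadjusted p = 0.0724, adjusted p = 0.996), which was −0.26 without anti-GAA replicate 2. KIF5A, a heavy chain best known from neurons, had 8.28 and 10.1 CPM against 4.96 and 7.08 CPM, again without overlap, and a log2 fold change of 0.61 ± 0.32 (edgeR, unadjusted p = 0.0927, adjusted p = 0.996), between 0.37 and 0.90 over the alternatives. The third heavy chain gene, KIF5C, had a log2 fold change of 0.15 ± 0.31 with overlapping groups. The difference between KIF5A and KIF5B was not tested, and neither gene passed the adjusted threshold.

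KIF16B, which moves early endosomes, was the only transport kinesin at an unadjusted p under 0.05 in edgeR without the replicate number. Its anti-GAA libraries had 5.46 and 7.53 CPM and its controls 9.98 and 12.1 CPM, a log2 fold change of −0.76 ± 0.30 (edgeR, unadjusted p = 0.0402, adjusted p = 0.996). KIF17, a motor of dendrites and cilia, had 2.22 and 2.02 CPM against 2.87 and 3.60 CPM (log2 fold change −0.61 ± 0.37). KIF1B, which carries mitochondria and synaptic vesicle precursors and was picked out after its values had been seen, had 44.8 and 60.5 CPM against 60.5 and 70.6 CPM (log2 fold change −0.32 ± 0.23). Its relative KIF1C, a carrier of vesicles and mRNA, was above control in both pairs, with 90.4 and 95.5 CPM against 84.4 and 77.2 CPM and a log2 fold change of 0.20 ± 0.19.

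The heterotrimeric kinesin, which drives transport into cilia, is built of KIF3A, KIF3B or KIF3C and the adaptor KIFAP3. KIF3A, the transport kinesin with a coding GAA run of 12 nt, had 13.6 and 8.65 CPM after the anti-GAA ASO against 11.02 and 11.03 CPM in the controls, and its pairs went opposite ways, 0.30 and −0.34. Its log2 fold change of 0.01 ± 0.30 was −0.10 with scaling to total counts, which lowered the median of all genes from 0.01 to −0.08. KIF3B, named after its values had been seen, had 76.8 and 75.5 CPM against 88.0 and 95.4 CPM (log2 fold change −0.27 ± 0.19), below control in both libraries. KIFAP3 had 14.3 and 14.2 CPM against 12.98 and 10.3 CPM (log2 fold change 0.29 ± 0.25). KIFC3, a minus-end motor of epithelial cells, had 58.4 and 56.0 CPM against 60.1 and 47.8 CPM and a log2 fold change of 0.08 ± 0.21, which was −0.01 under the same scaling. KIF13B, a vesicle motor, had the largest value above control among the tested kinesins (log2 fold change 0.73 ± 0.61), from 6 to 14 counts per library and from pair 1 only. Its mean level was under 1 CPM, so that a filter at that level left it out.

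Of the ciliary and other kinesins, KIF24 had the lowest p of the family. KIF24 sits at the centrioles, where it trims microtubules and holds back the assembly of a cilium. Its level was 3.44 and 3.20 CPM in the anti-GAA libraries and 6.13 and 9.02 CPM in the controls, without overlap. Its log2 fold change was −1.19 ± 0.34 (edgeR, unadjusted p = 0.0105, adjusted p = 0.922). With the replicate number as a block it was −1.20 and passed the adjusted threshold (edgeR, adjusted p = 0.0350). KIF26B, an atypical kinesin of Wnt signalling thought to lack motor activity, had 0.505 and 0.674 CPM against 1.37 and 1.95 CPM, a log2 fold change of −1.45 ± 0.50 (edgeR, unadjusted p = 0.0238, adjusted p = 0.996). These values rest on 5 and 12 counts with the anti-GAA ASO and 21 and 33 with the control. KIF21A, a regulator of microtubule growth at the cell cortex, had 29.0 and 18.6 CPM against 31.1 and 34.2 CPM (log2 fold change −0.46 ± 0.27), most of it in pair 2 (−0.87, beside −0.10 in pair 1). KIF9, a motor of motile cilia with the highest level per kb in this class, had 9.63 and 9.46 CPM per kb against 9.32 and 11.3 CPM per kb. KIF27, a cilium-linked relative of KIF7, and KIF12 had log2 fold changes of 0.39 ± 0.50 and 0.17 ± 0.51, and both overlapped between the groups. Opposite-strand exons of other genes cover 5.1% of the exons of KIF24, 10.7% of those of KIF27 and 17.8% of those of KIF9.

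**Figure D3:**
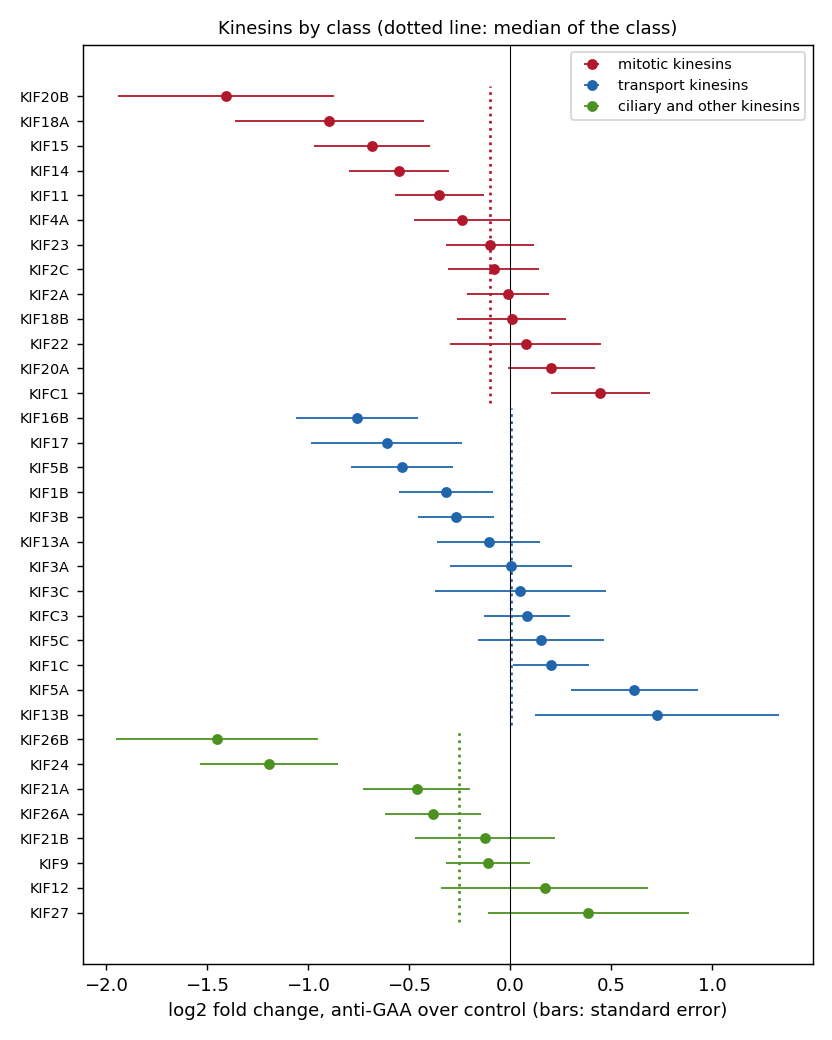
Log2 fold change (anti-GAA over control) of each tested kinesin with its standard error (horizontal bars), ordered within class, with a dotted line at the median of each class. The classes span from −1.41 to 0.45 (mitotic), −0.76 to 0.73 (transport) and −1.45 to 0.39 (ciliary and other).

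Mitotic kinesins were set against transport kinesins, the comparison that asks whether motors of cell division and of cargo traffic moved apart. The median log2 fold change was −0.10 for 13 mitotic and 0.01 for 13 transport kinesins, a difference of −0.11. In pair 1 the medians were −0.27 and 0.05, a difference of −0.31, and in pair 2 they were −0.08 and −0.22, a difference of 0.15. The difference therefore had opposite signs in the pairs, and it was 0.09 without control replicate 1. The transport median was −0.10 when libraries were scaled to total counts, a scaling that put the median of all genes at −0.08 in place of 0.01. The transport median was also below 0 with each library left out in turn. Counted by gene, 9 of 13 mitotic and 6 of 13 transport kinesins were below 0, and 6 against 5 were lower in both pairs, 1 against 4 higher in both. Among the ciliary and other kinesins 6 of 8 were below 0 and 5 were lower in both pairs. Their median was −0.25 (−0.18 in pair 1 and −0.37 in pair 2). Over all genes, 48.4% were below 0, 30% were lower in both pairs and 31.8% higher in both.

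Summed levels of the tested members overlapped between the groups for the mitotic class and not for the other classes. Mitotic kinesins added up to 641 and 587 CPM in the treated libraries and to 709 and 585 CPM in the controls. Transport kinesins added up to 435 and 423 CPM against 487 and 479 CPM, and ciliary and other kinesins to 88.8 and 83.2 CPM against 96.0 and 117 CPM. Without KIF5B the transport sums were 328 and 352 CPM against 348 and 361 CPM, which overlap. The mitotic sum is mostly KIF2C, KIF23 and KIF22. Of the mitotic members lower in both pairs, KIF4A (67.2 and 47.3 CPM in the controls) and KIF11 (42.6 and 49.5 CPM) contributed the most to it.

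Sequence features were then set beside the fold changes. A GAA run of 12 nt or more was found in the longest transcript of 2 of 34 tested kinesins (5.88%), KIF20B and KIF3A, and of 2.54% of all tested genes with a transcript. These 2 members differed in outcome, with log2 fold changes of −1.41 ± 0.53 and 0.01 ± 0.30. A run of 9 nt or more was found in 17 of 34 tested kinesins (50%) and in 20.1% of all genes. The tested kinesins also had longer transcripts, with a median of 5887.5 nt against 3407 nt, and the part of length in these shares was not tested. At least 18 of the 21 target bases matched without a gap in KIF20B, KIF1B and KIF26B among the tested kinesins (8.82%, beside 2.6% of all genes). With introns included, 8 of 34 tested kinesins (23.5%) and 11.3% of all genes had a run of 12 nt or more, and their log2 fold changes ranged from −1.45 (KIF26B) to 0.01 (KIF3A). No tested kinesin transcript had a TTC run of this length, the mirror of the target, which 0.495% of all genes had.

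Among mitotic kinesins the fold change ran with base composition. Across the 13 genes, GC content of the longest transcript and log2 fold change gave Spearman's rho of 0.80 and Pearson's r of 0.76, from KIF20B (34.3% GC) and KIF18A (36.0%) at the lower end to KIFC1 (57.5%) at the upper. KIF2A (37.2% GC, log2 fold change −0.01) and KIF18B (58.4%, 0.01) departed from it. The GC content of KIF2A is that of a transcript without a coding sequence, and opposite-strand exons of another gene cover 18.7% of the exons of KIF2A. After each library's trend on transcript length and GC content had been removed, rho was 0.69 and r 0.73. Over the 13 transport kinesins rho was 0.21, over the 8 ciliary and other kinesins −0.05, over all 34 kinesins 0.31 and over all genes 0.06. The longest GAA run and the log2 fold change gave a rho of −0.65 among mitotic, −0.04 among transport and −0.12 among ciliary and other kinesins, −0.31 over all 34 kinesins and −0.13 over all genes. Pearson's r between run and fold change was −0.80 among mitotic kinesins, and after the length and GC correction rho was −0.61 and r −0.77. KIF20B, a thinly counted gene, had a run of 17 nt, while the other tested mitotic kinesins had 6 to 10 nt. How far r rests on KIF20B was not tested. KIF20B had both the longest run and the lowest GC content of the class, and the parts of run and GC content were not separated. The correlations describe genes of the same 4 libraries, and genes are not independent replicates. Split at the median GC content of the tested kinesins (48.1%), the 17 genes at or below it had a median log2 fold change of −0.32, with 14 below 0 and 11 lower in both pairs. The 17 genes above it had a median of 0.05, with 7 below 0 and 5 lower in both pairs. Over all genes, 48.4% were below 0 and 30% were lower in both pairs.

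The partners of the kinesins were taken from lists of adaptors, spindle proteins and the dynein machinery. Of 14 tested adaptors and light chains, 0 passed the adjusted threshold in edgeR, beside 0% of all genes, and the median log2 fold change was 0.12. In both pairs 7 (50%) were higher and 4 (28.6%) lower, beside 31.8% and 30% of all genes. MAPK8IP1, a scaffold that links conventional kinesin to JNK signalling, had 4.24 and 4.72 CPM against 1.30 and 2.83 CPM, a log2 fold change of 1.11 ± 0.45 (edgeR, unadjusted p = 0.0440, adjusted p = 0.996). KIFBP, a protein that binds kinesin motor domains and blocks them from microtubules, had 52.2 and 55.4 CPM against 42.3 and 40.3 CPM, without overlap (log2 fold change 0.38 ± 0.20). SPAG9, an adaptor on lysosomes and endosomes, had 81.4 and 95.6 CPM against 108 and 124 CPM (log2 fold change −0.39 ± 0.20), and TRAK1, the mitochondrial adaptor, had −0.13 ± 0.22.

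Among 18 spindle and midzone partners, 2 (11.1%) reached an unadjusted p under 0.05, both lower, beside 3.46% of all genes lower and 1.02% higher. None passed the adjusted threshold in edgeR without the replicate number. With that number as a block, edgeR called ECT2 (adjusted p = 0.00975) and HMMR (adjusted p = 0.0122), both lower. The same fit called 1.37% of all genes lower and 0.337% higher. ECT2, the exchange factor that centralspindlin brings to the midzone to activate RhoA, had 16.4 and 15.3 CPM after the anti-GAA ASO against 33.2 and 28.4 CPM in the controls. Its log2 fold change was −0.96 ± 0.22 (edgeR, unadjusted p = 0.00320, adjusted p = 0.686). HMMR, a spindle-pole protein that works with TPX2, had 31.1 and 22.2 CPM against 53.3 and 41.6 CPM, a log2 fold change of −0.84 ± 0.26 (edgeR, unadjusted p = 0.0141, adjusted p = 0.964). Neither gene overlapped between the groups. PRC1, the bundler of midzone microtubules, had 225 and 186 CPM against 184 and 143 CPM (log2 fold change 0.33 ± 0.22). Over the list the median was −0.05, with 7 (38.9%) lower and 4 (22.2%) higher in both pairs, beside 30% and 31.8% of all genes. KIFBP, counted among the adaptors above, belongs to this list too and was among the 4 higher genes. CENPE, the kinesin of kinetochores whose symbol lies outside the KIF names, had 4.34 and 3.43 CPM against 5.35 and 8.61 CPM (log2 fold change −0.85 ± 0.37; edgeR, unadjusted p = 0.0534, adjusted p = 0.996), whereas STARD9, another kinesin outside them, had 0.11 ± 0.35.

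Cytoplasmic dynein, which walks in the opposite direction to most kinesins, and its activator dynactin had 20 tested genes with a median log2 fold change of 0.13. Of these, 11 (55%) were higher and 2 (10%) lower in both pairs, beside 31.8% and 30% of all genes. In 8 (40%) both anti-GAA libraries were above both controls, beside 15.5% of all genes, and in 0 both were below, beside 16.9%. In edgeR without the replicate number, 0 had an unadjusted p under 0.05, beside 3.46% of all genes lower and 1.02% higher. The light chain genes DYNLT1 (360 and 326 CPM against 270 and 238 CPM) and DYNLRB1 (203 and 204 CPM against 159 and 154 CPM) did not overlap between the groups, with log2 fold changes of 0.43 ± 0.19 and 0.38 ± 0.18. The heavy chain gene DYNC1H1 had 237 and 271 CPM against 246 and 431 CPM, a log2 fold change of −0.41 ± 0.29 that came from pair 2, and the dynactin subunit DCTN5 had −0.35 ± 0.28.

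Genes that mark G2 and mitosis did not share the direction of the lower mitotic kinesins in every pair. Their median log2 fold change over 15 tested genes was 0.10, with −0.11 in pair 1 and 0.36 in pair 2. In both pairs 3 (20%) were lower and 3 (20%) higher, beside 30% and 31.8% of all genes. None passed the adjusted threshold in edgeR without the replicate number, beside 0% of all genes. At an unadjusted p under 0.05 that fit gave 0, beside 3.46% of all genes lower and 1.02% higher. TOP2A, the topoisomerase of condensing chromosomes, had 79.4 and 55.5 CPM against 109 and 78.1 CPM (log2 fold change −0.47 ± 0.27), and MKI67, the proliferation marker, had −0.33 ± 0.22. CCNB2, a mitotic cyclin, and PTTG1, the securin, had log2 fold changes of 0.26 ± 0.19 and 0.24 ± 0.27. Summed, the markers stood at 2020 and 1854 CPM against 2092 and 1671 CPM, and what part the share of cells in G2 and mitosis had in the kinesin values was not tested.

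**Figure D4:**
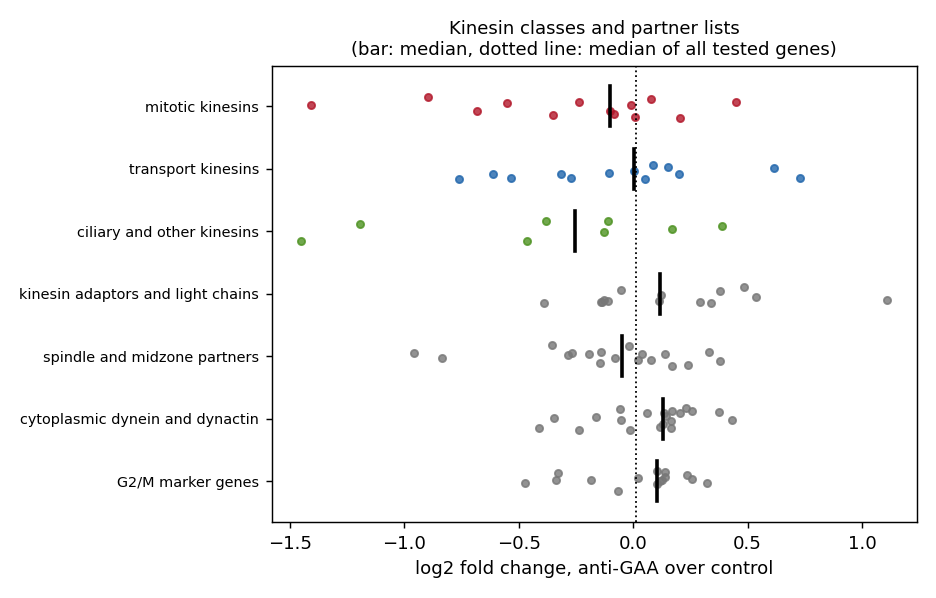
Log2 fold change (anti-GAA over control) of each tested gene in the kinesin classes and partner lists, with a bar at the median of each list and a dotted line at the median of all tested genes (0.01). The medians drawn lie between −0.25 for ciliary and other kinesins and 0.13 for dynein and dynactin, and the lists overlap over most of their range. KIFBP is drawn both among the adaptors and among the spindle and midzone partners.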

How the data were processed

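The file deposited by the authors holds unnormalized whole-number counts of reads for 63677 genes in each of the 4 libraries. Per the submitters' processing notes and the paper's methods, the authors trimmed reads with Trimmomatic 0.38, aligned them to hg19 with STAR 2.6.1 and counted Ensembl genes with featureCounts 1.6.3. The strand setting, the Ensembl release and the treatment of multi-mapping reads are not given in the sources used here. The labels and the methods differ on the library kit and on the length of transfection, and the labels' 48 h is printed. Columns of samples left unused numbered 0.

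The software was R 4.3.3 (edgeR 4.0.16, DESeq2 1.42.0, limma 3.58.1, mgcv 1.9.3) and Python 3.11.15 (pandas 2.3.3, numpy 2.4.6, scipy 1.17.1, matplotlib 3.10.9). Genes kept by filterByExpr (15116) were scaled by TMM (factors 0.941, 0.996, 1.00 and 1.07 for anti-GAA 1, anti-GAA 2, control 1 and control 2) and fitted in edgeR with a single term for the ASO, tested by quasi-likelihood, and adjusted by Benjamini-Hochberg over every tested gene (threshold 0.05). The edgeR fits with and without the replicate number were also run on simulated counts. The spread of these counts beyond a replicate effect was set below the common dispersion found here with that number in the model. That run does not show how often these fits err on the present data. CPM uses the TMM-scaled totals, and a pair's value is log2 CPM (prior count 2) of the anti-GAA library minus that of its control. With 2 libraries per group, the smallest two-sided exact permutation p for a single value is 0.333. GENCODE 44 on GRCh38, joined by Ensembl identifier, supplied gene symbols, transcript sequences and positions (52181 genes matched), and none was carried over from hg19. The ASO sequence came from the paper's supplementary list of oligonucleotides.

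Members and lists were chosen with earlier results of these data known. Named were, in each class, the 3 kinesins of lowest p per direction and the 2 with the most CPM per kb, members with a run of 12 nt or called in edgeR (with or without the replicate number) or DESeq2, and in each partner list the 2 genes of lowest p per direction. KIF18A, KIF11, KIF4A, KIF2A, KIF18B, KIF1B, KIF3B, KIF5C and KIFAP3 were added after their values had been seen. Alternatives covered the test, scaling, filter, replicate number, transcript length and GC content, each library left out, and the definition of a run.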

Additional observations from a re-analysis of the deposited data

How the results depend on the processing

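Leaving the replicate number out left 0 kinesins called under every test, scaling, filter and left-out library tried. Replicate numbers appear in the labels without a statement of what they mark, and deviations from the group means correlated between libraries of the same number (r = 0.56 across 15116 genes). Taken as a block in edgeR, the number gave 207 lower and 51 higher genes past the adjusted threshold, and with a length and GC correction as well 192 and 100. Under the block 1 kinesin was called lower in each, KIF24 (−1.20, adjusted p = 0.0350, and −1.14, adjusted p = 0.0409), beside 1.37% of all genes lower and 0.337% higher without the correction, and ECT2 (−0.95, adjusted p = 0.00975) and HMMR (−0.84, adjusted p = 0.0122) were called too. At an unadjusted p under 0.05 the block gave 11 kinesins lower and 2 higher (9 and 3 with the correction), scaling to total counts 7 lower, no filter 8 lower and DESeq2 1 lower, where the reported count was 4. The shares of all genes at that level were 9.7% lower and 6.86% higher with the block, 7.98% and 10% with the correction as well, 4.58% lower with total counts and 3.62% lower with no filter, against 2.1% in DESeq2. DESeq2 called 5 genes lower, and edgeR with no filter 111 lower and 5 higher. Leaving out each library in turn, with a lone library assumed to vary like the other group, gave 0 to 16 genes called lower, 0 to 3 higher, and 2 to 5 kinesins lower at the unadjusted level. The mitotic median then lay between −0.300 and −0.0514, the transport median, 0.01 with all libraries, between −0.144 and −0.0629, and the ciliary and other median between −0.41 and −0.13. The causes were not tested.

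Signs changed for several genes. Scaling to total counts, which shifted the median of all genes from 0.01 to −0.08 and so moved all genes downwards, gave −0.0121 for KIF22, −0.0952 for KIF3A, −0.0891 for KIF18B and −0.0051 for KIFC3. KIF3A was at −0.00836 with no filter, −0.00259 with a minimum mean of 1 CPM and −0.0263 with the block. KIF18B was at −0.00604 with no filter and −0.00817 with the block, and KIF2A at 0.160 with the length and GC correction and 0.157 with the block as well. Leaving out libraries gave ranges of −0.34 to 0.98 (KIF12), −0.33 to 0.65 (KIF22), −0.33 to 0.10 (KIF23), −0.26 to 0.13 (KIF2C), −0.34 to 0.31 (KIF3A), −0.46 to 0.0300 (KIF4A), −0.31 to 0.28 (KIF18B), −0.0514 to 0.0308 (KIF2A), −0.0979 to 0.36 (KIF5C), −0.25 to 0.0422 (KIF9), −0.0629 to 0.25 (KIFC3), −0.77 to 0.0562 (DYNC1H1), −0.0298 to 0.57 (PTTG1), −0.16 to 0.41 (STARD9) and −0.32 to 0.0855 (TRAK1). KIF20B, KIF15, KIF14, KIF16B, KIF5B, KIF24, KIF26B, KIFC1 and KIF5A kept their direction under all 12 alternatives, but not their size: KIF20B ranged from −2.17 to −0.80, KIF5B from −0.85 to −0.26 and KIFC1 from 0.21 to 0.67. KIF18A (−1.46 to −0.43), KIF11 (−0.52 to −0.19), KIF1B (−0.55 to −0.11) and KIF21A (−0.80 to −0.17) likewise stayed below 0, and KIF13B (0.30 to 1.38 over 11 alternatives), KIF5A (0.37 to 0.90), KIF1C (0.11 to 0.32), KIF20A (0.086 to 0.33) and KIF27 (0.079 to 0.72) above it.

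A GAA run was found in 2 of 42 kinesins at 12 nt, 21 at 9 nt, 4 by 18 of 21 target bases and, in a search added after seeing the data, 10 with introns. Depth limits the thin members: KIF20B, KIF26B, KIF27 and KIF13B had fewer than 50 counts in every library.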
